A study of Homo sapiens with 9 samples.

Results

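The MYC and PVT1 stretch of human chromosome 8 was described as open chromatin in a prostate cancer line, from 127.80 to 129.30 Mb of hg19. Peaks of all 9 libraries were merged wherever they overlapped by at least 1 bp, and every merged region that touched the stretch was kept, which gave 94 of the 94773 regions on chromosomes 1 to 22 and X. The stretch was divided by position alone into an upstream section of 900 kb (127.80 to 128.70 Mb, 51 regions), a MYC section of 100 kb (128.70 to 128.80 Mb, 8 regions) and a PVT1 section of 500 kb (128.80 to 129.30 Mb, 35 regions). Regions are named by section and coordinates, and without a gene annotation on hg19 none is assigned to a promoter, exon or intron. The RefSeq gene table at hand is on GRCh38 and gave only the order of genes, which runs PCAT1, PCAT2, PRNCR1, CASC19, CCAT1, CASC21, CASC8, CCAT2, POU5F1B, CASC11, MYC and PVT1. PCAT1 was not placed on the coordinates of the lists, and whether the sections match the genes they are named for was not checked.

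MYC encodes a transcription factor that drives cell growth and division, and it is often overexpressed or amplified in cancer. PVT1, its neighbour, is transcribed into a long noncoding RNA, and PCAT1 is a prostate cancer-associated long noncoding RNA. The gene-poor stretch before MYC, a part of 8q24, holds inherited prostate cancer risk variants and enhancers that can act on MYC over long distances. The androgen receptor binds at some of them. Enzalutamide blocks the androgen receptor.

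Open chromatin was mapped by ATAC-seq, in which the transposase Tn5 cuts accessible DNA and inserts sequencing adapters there. VCaP is an established line from a prostate cancer metastasis, grown in DMEM with 10% FBS and labelled wild type in genotype in every group. VCaP16 held 3 libraries of a VCaP derivative resistant to enzalutamide and grown in 16 µM of it, VCaP_ENZ held 3 libraries of VCaP cells given 10 µM enzalutamide for 96 h, and VCaP_DMSO held 3 libraries of VCaP cells given the solvent. Every VCaP16 library was grown with the drug, so effects of the line and of the drug cannot be told apart, and the labels do not say whether VCaP16 is 1 clone or whether replicates were separate cultures. The p-values therefore judge differences only against the spread of these libraries, and that spread may be technical.

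Each deposited list gave peak positions and the authors' score, read here as −log10 of a significance value, with no read counts, so depth is unknown. List length ran from 53646 to 68921 peaks, and VCaP16 replicate 3 (68921) and VCaP_ENZ replicate 2 (61744) were the longest. Because scores move with depth, the score of a region is followed here by its rank within its own library among the 33033 regions called in all 9 libraries, as a percent from the top, so that a small percent marks a strong region and every library ranks the same regions.

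The stretch was densely open. It held 62.7 regions per Mb, against 35.6 per Mb on chromosome 8 as a whole and 32.2 per Mb over all chromosomes. The density was 56.7 per Mb in the upstream section, 80.0 per Mb in the MYC section and 70.0 per Mb in the PVT1 section. Of the 94 regions, 36 (38.3%) were called in all 9 libraries, against 34.9% of all regions. These regions were 15 of 51 (29.4%) in the upstream section, 5 of 8 (62.5%) in the MYC section and 16 of 35 (45.7%) in the PVT1 section. Regions called in every library came to 16.7 per Mb upstream, 50.0 per Mb in the MYC section and 32.0 per Mb in the PVT1 section, against 11.2 over all chromosomes. These densities describe the stretch and were not tested.

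**Figure D1:**
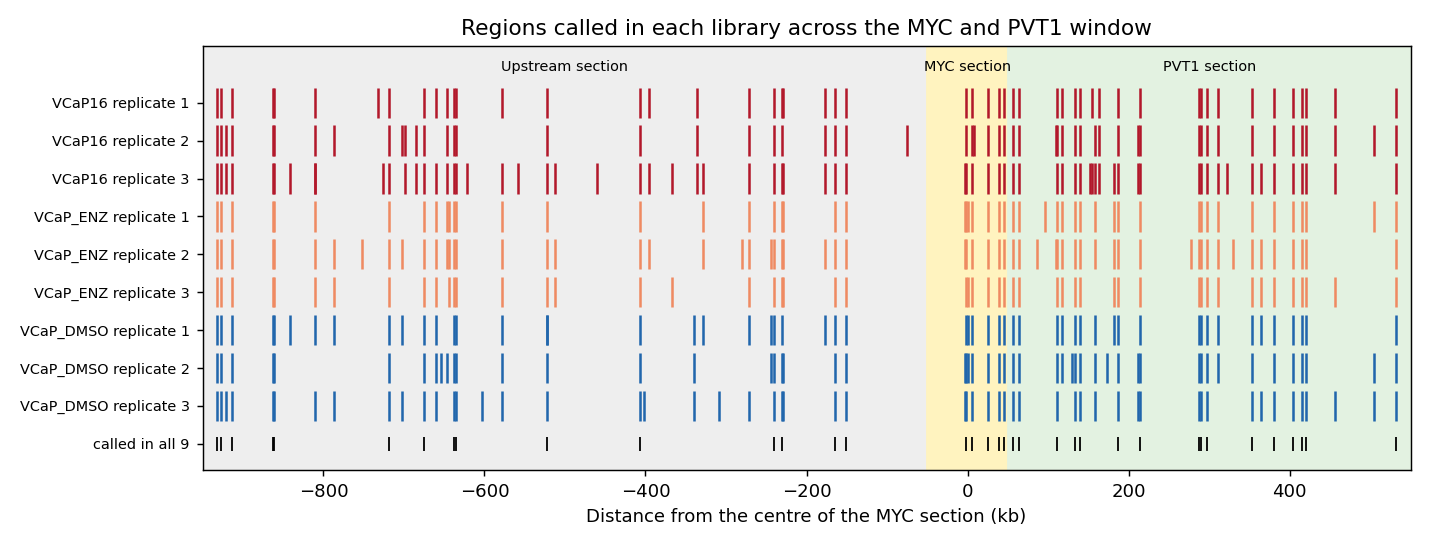
Calls of the 94 regions in each library (rows, VCaP16 at the top, then VCaP_ENZ, then VCaP_DMSO) against the distance from the centre of the MYC section in kb, with the 3 sections marked. The 36 regions called in all 9 libraries stand in every row, and the widest space without any region, 76.0 kb, lies in the upstream section, from 128598833 to 128674860.

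Open sites were unevenly spaced along the stretch. The 36 regions called in every library lay a median of 20.6 kb apart, and the widest gap between neighbours was 165.7 kb, from 128343132 to 128508807 in the upstream section. Counting all 94 regions, the widest gap was 76.0 kb, from 128598833 to 128674860. In 100 kb steps, the upstream step with most regions called in every library was its first, 127800001 to 127900000, with 5 of 6 regions. The PVT1 section had 2 such steps, 128800001 to 128900000 with 5 of 10 regions and 129100001 to 129200000 with 5 of 6. The MYC section, itself 1 step, had 5 of 8.

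At the edges, the region just inside the left limit, 127817350 to 127817854, was called in 9 libraries (median score 12.6), and the one just outside, 127760806 to 127761017, in 1 library with a score of 4.01. At the right limit the last region inside, 129281668 to 129282149, was called in 9 libraries (median score 50.4), and the next outside, 129329080 to 129329658, in 5 libraries with 4.33.

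The number of open regions was compared between groups first. The VCaP16 libraries called 51, 56 and 69 of the 94 regions, the VCaP_ENZ libraries 52, 62 and 51, and the VCaP_DMSO libraries 54, 52 and 54. The groups overlapped, and the highest values of VCaP16 and VCaP_ENZ came from the libraries with the longest lists. Means were 58.7 ± 9.29 in VCaP16, 55.0 ± 6.08 in VCaP_ENZ and 53.3 ± 1.15 in VCaP_DMSO (SD, n = 3 each), with a two-sided exact permutation p of 0.664 over the 3 groups. VCaP16 minus VCaP_DMSO was 5.33 regions (exact permutation p = 0.5) and VCaP_ENZ minus VCaP_DMSO was 1.67 (exact permutation p = 1). VCaP16 minus VCaP_ENZ was 3.67 (exact permutation p = 0.7), and VCaP16 minus the mean of the 6 VCaP libraries was 4.5 (exact permutation p = 0.369). With every list shortened to 53646 peaks the difference between VCaP16 and VCaP_DMSO was -0.333 and without VCaP16 replicate 3 it was 0.167. The smallest p possible is 0.1 for 3 against 3 libraries, 0.0119 for 3 against 6 and 0.00357 for 3 groups.

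By section the groups also overlapped. In the MYC section the VCaP16 libraries called 5, 6 and 6 of 8 regions, the VCaP_ENZ libraries 7, 6 and 6, and the VCaP_DMSO libraries 6, 7 and 6 (exact permutation p = 0.536 over 3 groups). Upstream the counts of 51 were 25, 26 and 36 in VCaP16, 23, 31 and 24 in VCaP_ENZ and 27, 22 and 27 in VCaP_DMSO (exact permutation p = 0.643). In the PVT1 section they were 21, 24 and 27 of 35 in VCaP16, 22, 25 and 21 in VCaP_ENZ and 21, 23 and 21 in VCaP_DMSO (exact permutation p = 0.529).

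Relative to the length of the lists, the stretch took between 9.33 and 10.4 of every 10000 peaks of a library. The values were 9.33, 9.95 and 10.2 in VCaP16, 9.99, 10.2 and 10.1 in VCaP_ENZ and 9.54, 9.68 and 10.4 in VCaP_DMSO. Means were 9.81 ± 0.431 in VCaP16, 10.1 ± 0.106 in VCaP_ENZ and 9.87 ± 0.468 in VCaP_DMSO (SD, n = 3 each), with an exact permutation p of 0.646 over the 3 groups. For the MYC section they were 1.03 ± 0.0159 in VCaP16, 1.19 ± 0.190 in VCaP_ENZ and 1.21 ± 0.144 in VCaP_DMSO (SD, n = 3 each; exact permutation p = 0.311). Peaks in the stretch averaged 514 ± 20.2 bp wide in VCaP16, 502 ± 22.9 bp in VCaP_ENZ and 489 ± 35.1 bp in VCaP_DMSO (SD, n = 3 each; exact permutation p = 0.575). The peaks covered 26.6, 29.5 and 37.3 kb of the stretch in VCaP16, 26.0, 33.2 and 26.9 kb in VCaP_ENZ and 28.1, 26.8 and 25.1 kb in VCaP_DMSO. Among the 36 regions called everywhere, the median rank per library averaged 42.6% ± 1.68 in VCaP16, 41.2% ± 4.60 in VCaP_ENZ and 41.6% ± 4.42 in VCaP_DMSO (SD, n = 3 each; exact permutation p = 0.864). None of the 50 exact permutation tests of calls, peaks, widths and ranks had a p below 0.05, and the smallest p adjusted by Benjamini-Hochberg was 0.946.

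**Figure D2:**
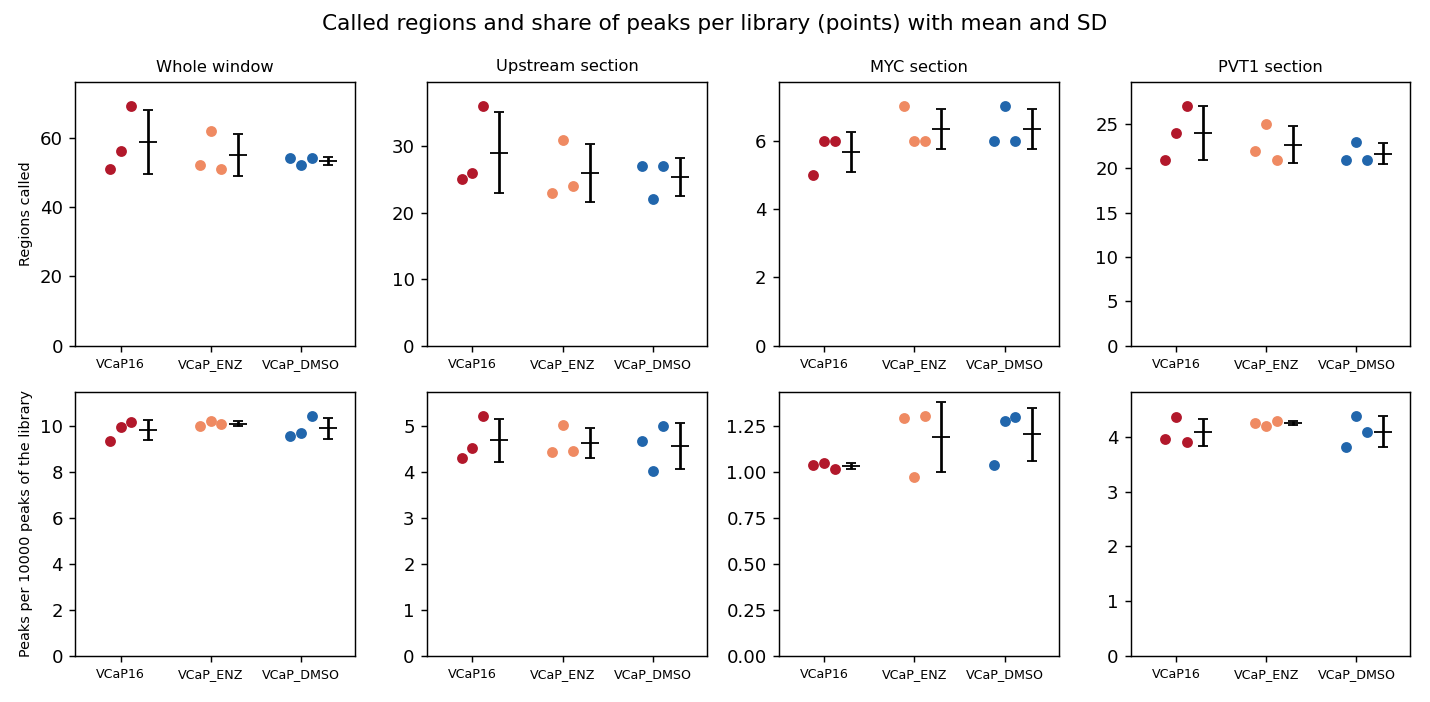
Regions called per library (upper panels) and peaks per 10000 peaks of the library (lower panels) in each section, with 1 point per library and the mean ± SD over 3 libraries. Groups run VCaP16, VCaP_ENZ, VCaP_DMSO from left to right, and VCaP16 and VCaP_ENZ each overlap VCaP_DMSO in all panels.

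The upstream section held the strongest region of the stretch. It lies at 128030569 to 128031491, at -719 kb from the centre of the MYC section. Its scores were 124, 127 and 187 in VCaP16, 93.5, 129 and 93.6 in VCaP_ENZ and 122, 112 and 113 in VCaP_DMSO. Its ranks were 0.490%, 0.566% and 0.387% in VCaP16, 1.82%, 1.37% and 1.64% in VCaP_ENZ and 1.81%, 1.46% and 1.26% in VCaP_DMSO. All 3 VCaP16 libraries ranked it nearer the top than any of the 6 VCaP libraries, an order not counted over the 33033 regions. Its score in VCaP_ENZ replicate 2 lay within the VCaP16 range. Peaks covered 875, 859 and 899 bp of it in VCaP16, 737, 775 and 713 bp in VCaP_ENZ and 690, 720 and 751 bp in VCaP_DMSO, again without overlap between VCaP16 and the others. In the limma fit of log2 covered width over all 33033 regions called in every library, VCaP16 minus VCaP_DMSO was 0.29 (95% interval 0.07 to 0.51). Its limma p was 0.0162 before adjustment and 0.638 after Benjamini-Hochberg adjustment, so it did not pass.

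Other strong upstream regions differed less or in another pattern. The region at 128598127 to 128598833 (-152 kb) had a median rank of 7.62% over the 9 libraries. Its scores were 53.5, 75.0 and 65.0 in VCaP16, 44.2, 74.5 and 63.1 in VCaP_ENZ and 69.2, 55.2 and 65.3 in VCaP_DMSO, with full overlap of the groups. The region at 128342313 to 128343132 (-407 kb) ranked at 7.02%, 15.4% and 7.53% in VCaP16, 16.2%, 7.38% and 10.7% in VCaP_ENZ and 18.8%, 18.5% and 18.2% in VCaP_DMSO. All 6 libraries given the drug ranked it nearer the top than the 3 solvent libraries. The widest merged upstream region, 127938497 to 127939844 (1348 bp), was called in 8 libraries and missed in VCaP_DMSO replicate 2.

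The MYC section held 5 regions called in every library, with median ranks from 9.46% to 91.6%. Among these, the region nearest the centre of the section, 128747449 to 128748778 (1330 bp merged), was broad and of middling score. Peaks covered 1217, 1230 and 1262 bp of it in VCaP16, 1093, 1305 and 1149 bp in VCaP_ENZ and 1330, 1249 and 1238 bp in VCaP_DMSO. Its scores were 22.8, 23.7 and 22.3 in VCaP16, 25.5, 27.7 and 24.7 in VCaP_ENZ and 29.1, 21.0 and 27.8 in VCaP_DMSO. The VCaP16 scores lay within the VCaP_DMSO range, and the median rank over the 9 libraries was 39.6%. Of all regions called in every library, 13.0% were at least as wide. The limma difference in log2 covered width was -0.04 for VCaP16 minus VCaP_DMSO (95% interval -0.24 to 0.15) and -0.11 for VCaP_ENZ minus VCaP_DMSO (95% interval -0.30 to 0.09).

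The strongest MYC-section region lay at 128788652 to 128789442 (39.0 kb past the centre). Its scores were 53.3, 51.5 and 79.6 in VCaP16, 47.6, 52.1 and 60.6 in VCaP_ENZ and 67.7, 55.8 and 47.7 in VCaP_DMSO. Its ranks were 7.69%, 9.46% and 6.97% in VCaP16, 10.8%, 15.0% and 5.58% in VCaP_ENZ and 9.06%, 9.84% and 12.5% in VCaP_DMSO, with overlap between all groups. The region at 128775502 to 128776390 (25.9 kb) had a median rank of 21.0%, and peaks covered 748, 739 and 889 bp of it in VCaP16, 480, 786 and 488 bp in VCaP_ENZ and 684, 605 and 686 bp in VCaP_DMSO. The 3 VCaP_ENZ widths were the most spread of the groups there.

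The remaining 2 MYC-section regions had ranks that did not overlap between some groups. The widest, 128754393 to 128756065 (1673 bp merged), ranked at 86.0%, 84.9% and 57.5% in VCaP16, 54.0%, 30.3% and 30.4% in VCaP_ENZ and 76.1%, 67.9% and 61.8% in VCaP_DMSO. Each VCaP_ENZ library ranked it nearer the top than every VCaP_DMSO and VCaP16 library. Its scores were 17.2, 34.6 and 25.8 in VCaP_ENZ against 14.5, 14.2 and 15.5 in VCaP_DMSO, while VCaP16 replicate 3 scored within the VCaP_ENZ range. In 3 libraries it held more than 1 peak. The region at 128794308 to 128795354 (44.8 kb) ranked at 94.2%, 92.3% and 97.5% in VCaP16, 91.6%, 81.4% and 95.4% in VCaP_ENZ and 65.3%, 46.7% and 80.0% in VCaP_DMSO. Its scores were 6.55, 7.58 and 7.22 in VCaP16, 7.32, 13.2 and 5.91 in VCaP_ENZ and 18.0, 21.4 and 10.6 in VCaP_DMSO. All 6 libraries given the drug thus ranked it farther from the top than the solvent libraries.

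**Figure D3:**
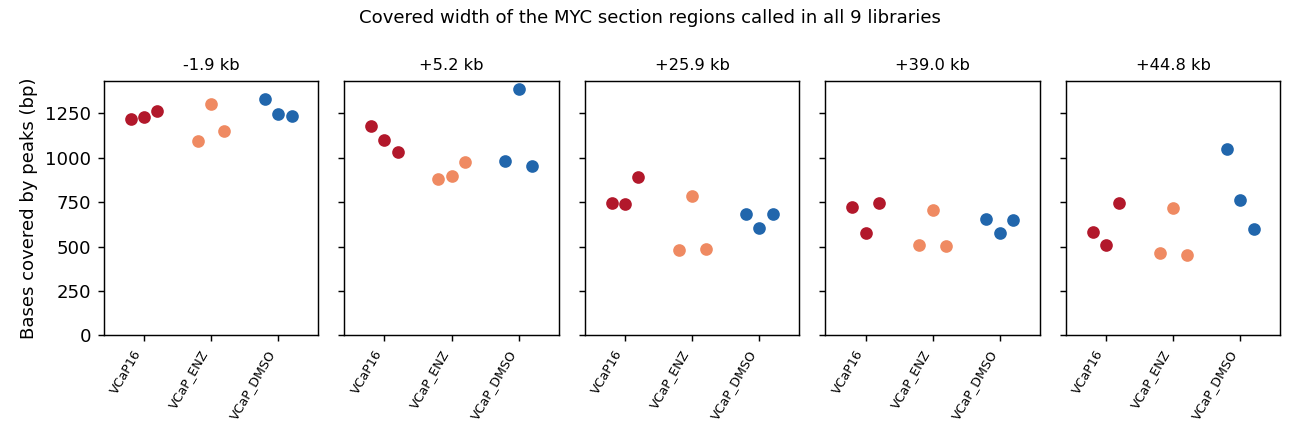
Bases covered by peaks (bp) in the 5 MYC-section regions called in all 9 libraries, with 1 point per library, VCaP16 left, VCaP_ENZ middle, VCaP_DMSO right. Covered width at 128747449 to 128748778 stays between 1093 and 1330 bp, and no MYC-section region passed the limma test of width after adjustment.

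Of the 36 regions called in every library, 7 had a median rank under 10%. These were 2 of 15 upstream and 1 of 5 in the MYC section, and sections were not compared by a test. The PVT1 section held 4, among 16 called in every library. Its strongest region, 129169487 to 129170091 (419.8 kb), had scores of 84.5, 75.4 and 111 in VCaP16, 78.6, 77.4 and 72.7 in VCaP_ENZ and 109.9, 101 and 99.3 in VCaP_DMSO. Its ranks were 1.99%, 3.36% and 2.58% in VCaP16, 3.12%, 6.31% and 3.51% in VCaP_ENZ and 2.52%, 2.07% and 1.95% in VCaP_DMSO. Every VCaP_ENZ library ranked it farther from the top than every VCaP_DMSO library, while VCaP16 overlapped both. The next was 129039967 to 129040800 (290.4 kb), with a median rank of 4.45%.

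The region at 128888808 to 128889507 (139 kb) ranked at 2.34%, 2.14% and 3.15% in VCaP16, 5.27%, 5.35% and 8.71% in VCaP_ENZ and 8.38%, 10.2% and 5.26% in VCaP_DMSO. As at -719 kb, all 3 VCaP16 libraries stood above the 6 VCaP libraries. The limma difference in log2 covered width for VCaP16 minus VCaP_DMSO was 0.33, with a limma p of 0.0449 before and 0.747 after Benjamini-Hochberg adjustment.

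The widest merged region of the stretch, 128805924 to 128807970 (2047 bp, 56.9 kb), also lay in the PVT1 section, and only 1.29% of regions called in every library were at least as wide. It held more than 1 peak in 6 libraries. It ranked at 54.4%, 43.1% and 40.1% in VCaP16, 72.2%, 26.3% and 68.3% in VCaP_ENZ and 26.9%, 19.2% and 23.8% in VCaP_DMSO. Peaks covered 1491, 1239 and 1709 bp in VCaP16, 1103, 1515 and 962 bp in VCaP_ENZ and 691, 1595 and 933 bp in VCaP_DMSO. Each VCaP16 library ranked it farther from the top than every VCaP_DMSO library, but the covered widths overlapped.

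**Figure D4:**
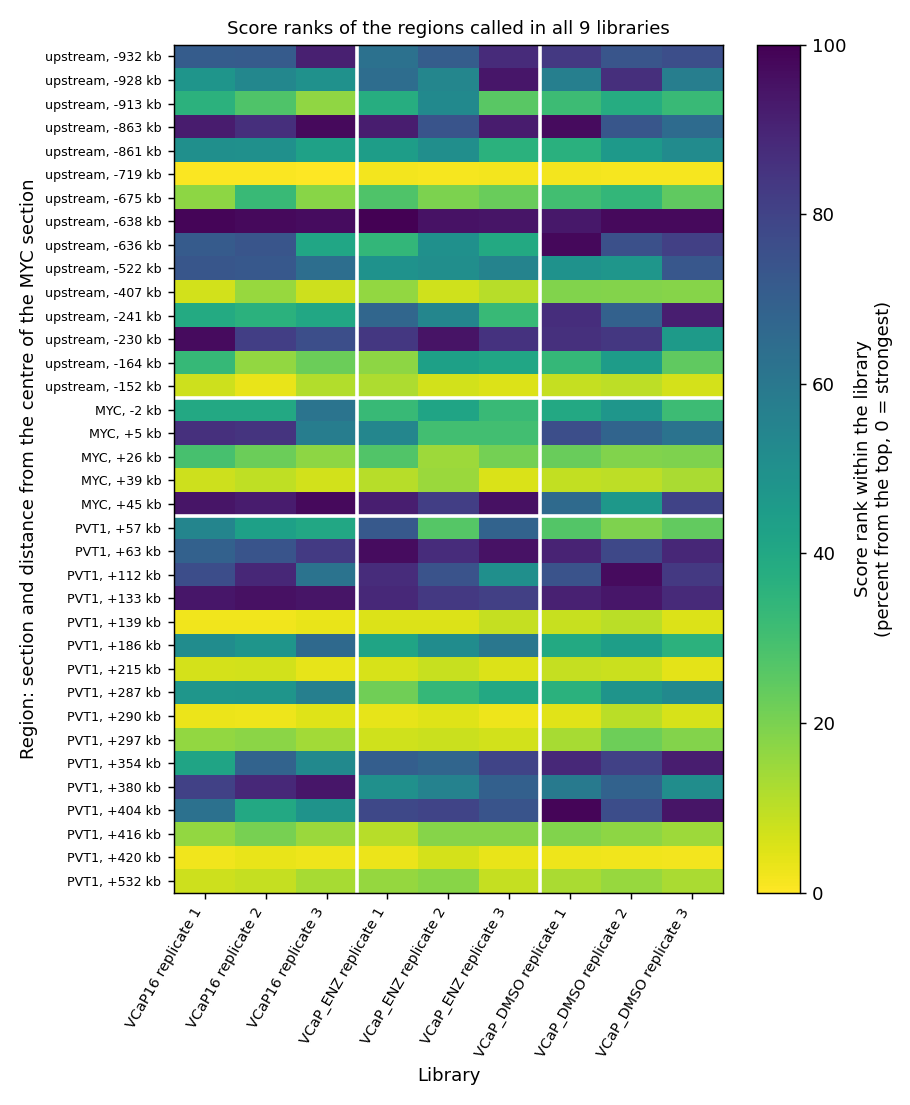
Score rank within each library (percent from the top, yellow for the strongest and dark purple for the weakest) of the 36 regions called in all 9 libraries, in order along the stretch, with libraries in the order VCaP16, VCaP_ENZ, VCaP_DMSO. The region at -719 kb ranks within the top 2% in all 9 libraries, and 16 of the 36 regions have a median rank over 50%.

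Ranks were then compared over all 36 regions called everywhere, counting those whose 3 ranks in one group did not overlap the 3 in the other. VCaP16 ranked 8 of 36 (22.2%) nearer the top than VCaP_DMSO and 5 (13.9%) farther from it, against 10.1% and 9.8% of the 33033 regions. VCaP_ENZ ranked 6 (16.7%) nearer the top than VCaP_DMSO and 2 (5.56%) farther from it, against 8.27% and 7.52% of all. VCaP16 ranked 5 (13.9%) nearer the top than VCaP_ENZ and 6 (16.7%) farther from it, against 8.59% and 8.99%. Both comparisons with VCaP_DMSO share its libraries. With a peak having to cover 50% of the region, only 21 of the 36 were still called in all 9 libraries and could be ranked. Of these 21, VCaP16 ranked 4 (19.0%) nearer the top than VCaP_DMSO and 2 (9.52%) farther from it, against 9.95% and 9.55% of the 17712 regions ranked under that setting. Among the regions that could not be ranked there, and whose patterns were therefore not evaluated, were those at 128794308, 128805924, 128508807, 129154044, 129103330 and 128882510.

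The 3 regions with the largest differences in which VCaP16 ranked nearer the top than VCaP_DMSO were weak in the solvent libraries. The region at 128508807 to 128509711 (-241 kb, upstream) ranked at 38.8%, 36.0% and 40.1% in VCaP16, 67.1%, 54.2% and 32.7% in VCaP_ENZ and 87.0%, 68.9% and 91.7% in VCaP_DMSO. The PVT1-section region at 129154044 to 129154708 (404 kb) ranked at 62.7%, 39.7% and 48.5% in VCaP16, 78.5%, 79.6% and 74.0% in VCaP_ENZ and 98.7%, 76.4% and 94.4% in VCaP_DMSO. The first also stood nearer the top in each VCaP_ENZ library than in any VCaP_DMSO library, and the second did not, since VCaP_ENZ and VCaP_DMSO overlapped. The PVT1-section region at 129103330 to 129103761 (354 kb) ranked at 41.7%, 68.0% and 52.5% in VCaP16, 70.2%, 67.3% and 79.4% in VCaP_ENZ and 88.3%, 80.8% and 92.0% in VCaP_DMSO.

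In the other direction, the largest difference was at 129129540 to 129130325 (379.9 kb) in the PVT1 section. It ranked at 80.5%, 88.5% and 94.0% in VCaP16, 49.7%, 55.5% and 69.5% in VCaP_ENZ and 58.7%, 68.6% and 51.1% in VCaP_DMSO. The VCaP16 libraries stood apart from both VCaP groups, which overlapped each other. It was followed by the regions at 128794308 and 128805924 described above. The other 2 regions of this direction, chosen for mention after their values were seen, also lay in the PVT1 section. The region at 128935800 to 128936509 (186 kb) ranked at 51.6%, 48.0% and 65.9% in VCaP16, 41.7%, 51.5% and 60.3% in VCaP_ENZ and 39.1%, 43.8% and 35.7% in VCaP_DMSO. The region at 128882510 to 128883466 (133 kb) ranked at 93.9%, 95.7% and 94.3% in VCaP16, 88.6%, 83.5% and 81.1% in VCaP_ENZ and 90.9%, 93.8% and 88.0% in VCaP_DMSO, and the nearest VCaP16 and VCaP_DMSO libraries were almost level. Without VCaP16 replicate 2, without VCaP16 replicate 3 or without both of the longest lists, the ranks of VCaP16 and VCaP_DMSO overlapped at 128882510.

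For VCaP_ENZ against VCaP_DMSO, the largest difference was at 128113696 to 128114622 (-636 kb, upstream). This region ranked at 71.2%, 73.7% and 40.8% in VCaP16, 33.9%, 49.7% and 39.1% in VCaP_ENZ and 98.0%, 75.5% and 81.2% in VCaP_DMSO. All 6 libraries given the drug stood nearer the top than the solvent libraries, an order not counted over all regions. It was followed by the MYC-section region at 128754393 and by the -241 kb region, both given above. The 2 regions that VCaP_ENZ ranked farther from the top were those at 128794308 and 129169487. A further region, at 129046724 to 129047757 (297 kb, PVT1 section), was chosen for mention after its values were seen. It ranked at 16.3%, 17.3% and 13.8% in VCaP16, 7.40%, 7.91% and 6.83% in VCaP_ENZ and 13.0%, 21.9% and 18.7% in VCaP_DMSO, so the VCaP_ENZ libraries stood above both other groups.

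**Figure D5:**
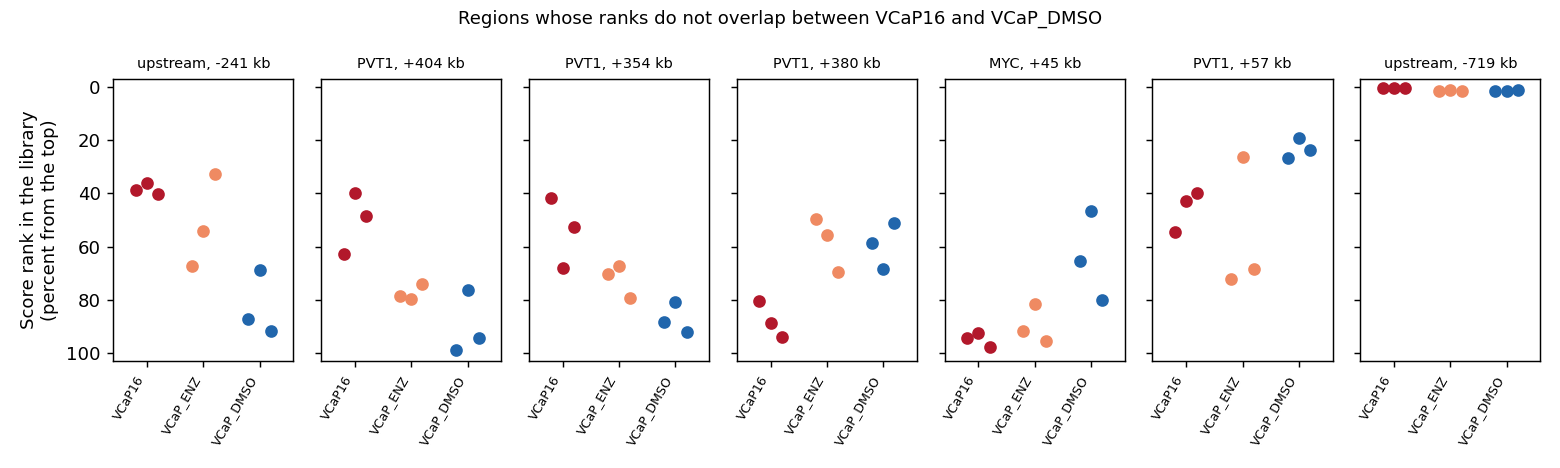
Score rank (percent from the top, axis inverted so that strong regions are high) of 7 regions, with 1 point per library and groups in the order VCaP16, VCaP_ENZ, VCaP_DMSO. Shown are the 3 largest differences without overlap per direction of VCaP16 against VCaP_DMSO and the strongest upstream region, whose VCaP16 ranks of 0.387% to 0.566% lie apart from the 6 VCaP libraries by too little to be seen on this axis.

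Covered width was tested for every region called in all 9 libraries. No region of the 33033 (0.0%) passed the limma test at an adjusted p below 0.05 in any of the 3 pairs of groups, and so none of the 36. Before adjustment, limma p-values below 0.05 came to 3 wider and 1 narrower region in VCaP16 than in VCaP_DMSO, against 4.41% and 2.15% of all regions. The wider regions were those at 128030569, 128888808 and 129154044. With centred widths the unadjusted limma p was 0.0321 at 129154044, 0.0633 at 128030569 and 0.0907 at 128888808. That left 1 wider region, against 1333 of the 33033. The narrower one was at 128882510, where peaks covered 327, 359 and 470 bp in VCaP16, 325, 456 and 539 bp in VCaP_ENZ and 897, 521 and 692 bp in VCaP_DMSO. Its log2 difference for VCaP16 minus VCaP_DMSO was -0.85 (95% interval -1.45 to -0.25), with a limma p of 0.0107 before and 0.593 after adjustment. With centred widths the limma p there was 0.00429 before and 0.397 after adjustment. It remained the 1 narrower region, against 1191 of the 33033. For VCaP_ENZ minus VCaP_DMSO without centring, unadjusted limma p-values below 0.05 came to 1 wider region, at 128888808, and 1 narrower, again at 128882510, against 2.39% and 3.44%. With centred widths these counts were 2 wider and 2 narrower, against 1086 and 1237 of the 33033 regions. For VCaP16 minus VCaP_ENZ the uncentred counts were 4 wider and 0 narrower, against 4.61% and 1.54%. The 4 were at 128030569, 128775502, 128812720 (PVT1 section) and 129154044. With centred widths those at 128775502 and 128812720 were the 2 left, against 1210 wider regions of the 33033. None of the 36 was narrower there, against 1018. The regions at 128882510 and 128812720 are named for these counts, after their values were seen. The median log2 change in width over the 36 regions was 0.06 for VCaP16 minus VCaP_DMSO, beside 0.02 over all regions. It was 0.06 for VCaP_ENZ minus VCaP_DMSO, beside -0.03, and 0.05 for VCaP16 minus VCaP_ENZ, beside 0.05. With the widths of each library centred on their median, the medians over the 36 regions were 0.03 for VCaP16 minus VCaP_DMSO, 0.09 for VCaP_ENZ minus VCaP_DMSO and -0.01 for VCaP16 minus VCaP_ENZ, so the last turned in sign.

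Few regions were open in every library of one group and in none of another. In all 3 VCaP16 and no VCaP_DMSO libraries there were 2 of 94 regions, against 1.63% of all regions, and in the opposite direction 1, against 0.532%. In all 3 VCaP_ENZ and no VCaP_DMSO libraries there was 1, against 0.653%, and in the opposite direction 1, against 0.557%. Between VCaP16 and VCaP_ENZ there were 2 called only in VCaP16, against 1.13%, and 1 called only in VCaP_ENZ, against 0.41%. Single regions were not tested between groups of 3. Fisher's exact test of VCaP16 against the 6 VCaP libraries gave 2 regions at an unadjusted p of 0.0119, both with more calls in VCaP16 (1.33% of all regions had a p below 0.05 in that direction and 0.296% in the other), and each had an adjusted p of 1.

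These counts came from 4 regions, and each was called in exactly 1 group. The PVT1-section region at 128912801 to 128913138 (163 kb) was called in all 3 VCaP16 libraries with scores of 6.84, 5.24 and 9.48, peaks of 222, 285 and 264 bp, and in none of the 6 VCaP libraries. Its scores and widths already met a minimum score of 5 and the overlap of 50%, so neither setting could end the pattern. Lists of equal length drop only the lowest-scored peaks of the longer lists, and the pattern was also kept there. That follows from the same scores and is no separate support. Upstream, the region at 128413154 to 128413606 (-337 kb) was likewise called in VCaP16 alone, with scores of 2.72, 6.23 and 8.57, and lost the pattern with a minimum score of 5 and with lists of equal length. A region 2376 bp before it, 128410415 to 128410777 (-339 kb), was called in VCaP_DMSO alone. Its scores were 7.70, 8.66 and 9.59, and its peaks 189, 291 and 205 bp. Here too the score and overlap settings were already met, and its scores also kept the pattern with lists of equal length. The calls of these neighbours were opposite, and the scores of both were low. The region at 128105646 to 128106258 (-644 kb) was called in VCaP_ENZ alone, with scores of 6.48, 5.80 and 6.26, and lost the pattern when a peak had to cover 50% of the region. The 4 regions lay between 64.1% and 78.2% from the top of the lists that called them.

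Some regions were called in a single library. These were 24 of the 94 (25.5%), against 22.6% of all regions, and 13 of the 24 came from VCaP16 replicate 3 or VCaP_ENZ replicate 2. Upstream held 15 of the 24, the PVT1 section 8 and the MYC section 1. Their scores had a median of 3.39 and reached 12.6. By group, 45 of the 94 (47.9%) were called in 3 of 3 VCaP16 libraries, against 46.4% of all regions. In 3 of 3 VCaP_ENZ libraries 45 were called (47.9%), against 43.3% of all, and in 3 of 3 VCaP_DMSO libraries 40 (42.6%), against 42.9%. The share of called regions that a pair of libraries had in common averaged 0.724 within groups and 0.655 between VCaP16 and VCaP_DMSO. It was 0.722 between VCaP_ENZ and VCaP_DMSO and 0.678 between VCaP16 and VCaP_ENZ, given as a description. Pairs within VCaP16 ran from 0.667 to 0.726. VCaP16 replicate 3, the longest list, shared 0.592 to 0.640 with the VCaP_DMSO libraries. The other VCaP16 and VCaP_DMSO pairs shared 0.636 to 0.694. No such value was computed over all regions.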

How the data were processed

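ATAC-seq peak lists of 9 libraries in 3 groups of 3 were used as deposited, 1 list per library, so replicates were not pooled. The authors deposited a score for each peak, read here as −log10 of its p-value or its q-value; it never fell below 2, and no source used here says which. The build hg19 and the tools HOMER 3.12, MACS2 2.2.7.1 and BWA 0.7.15-r1140 are named, per the submitters' processing notes, without roles or settings; read filters and Tn5 shifts are not given there. The labels' protocol describes crosslinked bulk cells and also a single-cell preparation, and the lists were treated as bulk.

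Peaks on chromosomes 1 to 22 and X were merged (1 bp), with regions across a section edge placed by midpoint. Coordinates count from 1. Calls, peaks per 10000, mean peak width and median score rank were tested between groups by two-sided exact permutation (numpy 2.4.6, scipy 1.17.1), adjusted over 50 tests by Benjamini-Hochberg. Log2 covered width of 33033 regions was fitted with limma 3.58.1 (trend, 3 groups); calls were tested with Fisher's exact test over 94773 regions. Region merging with a call pattern and the limma fit were checked on simulated data, and the permutation test on a made-up series of values.

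Regions named are, per section, the best 3 by median rank and the widest; those with calls in a whole group of 3 and 0 in another; the 3 largest differences without overlap per direction against VCaP_DMSO; the 100 kb steps with most regions called throughout; and any past the adjusted limma threshold. The 128888808 region is the third of its section by rank. The section bounds, lists and rules were chosen with earlier results of these data known. Settings tried were a minimum score of 5, lists of equal length, an overlap of 50% of the region, calls in 2 of 3 libraries, consensus regions, another denominator, centred widths, each library left out and a replicate block. Leaving out both of the longest lists and all alternatives for rank overlaps and Fisher's test were added after seeing the data. Deviations from group means correlated at -0.00901 to 0.0488 over 9 same-numbered pairs and -0.0382 to 0.0214 over 18 others, so numbers were not taken as pairs. Between VCaP_ENZ and VCaP_DMSO the same-numbered pairs (0.0202, 0.0488 and 0.0323) nevertheless lay above the others (-0.0382 to 0.00462). No sequence or annotation was used here.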

Additional observations from a re-analysis of the deposited data

How the results depend on the processing

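Of 224 recomputed differences between groups, 20 changed sign, and of 266 recomputed counts, 33 moved by more than 1.5 times. Tests of 3 against 3 libraries cannot pass 0.05, so only 199 recomputed exact permutation tests, over 3 groups or against the 6 VCaP libraries, could have done so; none did, and the smallest p was 0.0714. With lists of equal length, VCaP16 called -0.333 regions relative to VCaP_DMSO, -1.67 relative to VCaP_ENZ and -1.0 relative to the 6 VCaP libraries. With a peak having to cover 50% of the region, the median rank of VCaP16 differed by -9.52 points from VCaP_DMSO, -1.04 from VCaP_ENZ and -5.28 from the 6 VCaP libraries. Without both of the longest lists, an alternative chosen after seeing the data, VCaP_ENZ called -1.33 regions relative to VCaP_DMSO.

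With single libraries left out, regions called differed by 0.167 to 9.17 for VCaP16 minus VCaP_DMSO, -1.83 to 3.67 for VCaP_ENZ minus VCaP_DMSO, -1.83 to 7.5 for VCaP16 minus VCaP_ENZ and -0.833 to 8.33 for VCaP16 minus the 6 VCaP libraries; the negative values came without VCaP16 replicate 3, and without VCaP_ENZ replicate 2 for VCaP_ENZ minus VCaP_DMSO. Peaks per 10000 ranged from -0.238 to 0.202 for VCaP16 minus VCaP_DMSO and from -0.345 to 0.0696 for VCaP16 minus the 6 VCaP libraries. Median rank ranged from -0.858 to 3.09 for VCaP16 minus VCaP_DMSO, -3.01 to 1.32 for VCaP_ENZ minus VCaP_DMSO and -0.335 to 4.02 for VCaP16 minus VCaP_ENZ. Mean peak width for VCaP_ENZ minus VCaP_DMSO ranged from -6.41 to 25.1 bp. The median log2 width change over the regions called in all libraries ranged from 0.05 to 0.13 for VCaP16 minus VCaP_DMSO, -0.0035 to 0.09 for VCaP_ENZ minus VCaP_DMSO and 0.0042 to 0.11 for VCaP16 minus VCaP_ENZ.

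With 1 library left out, 36 or 38 regions were ranked. VCaP16 against VCaP_DMSO had 8 to 12 nearer the top without rank overlap (14.7% of all regions at 12). Farther counts were 5 to 6 (14.9% to 15.4% at 6). VCaP_ENZ against VCaP_DMSO had 6 to 9 nearer (13.5% at 9) and 2 to 5 farther. VCaP16 against VCaP_ENZ had 5 to 9 nearer and 6 to 8 farther (14.1% at 8). Smaller groups overlap less often by construction. For VCaP16 nearer than VCaP_ENZ, 9 came without VCaP_ENZ replicate 3 (13.8%) and 8 without VCaP16 replicate 2 (13.7%). For VCaP_ENZ farther than VCaP_DMSO, 5 came without VCaP_DMSO replicate 1 (12.5%) and 4 without VCaP_ENZ replicate 2 (13.8%).

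Counts of regions called in every library of one group and none of another were small and moved; the share of all regions under the same setting follows each in brackets. A minimum score of 5 left 1 for VCaP16 and not VCaP_ENZ (1.34%) and gave 2 for VCaP_DMSO and not VCaP_ENZ (0.584%). Equal list lengths left 1 for VCaP16 and not VCaP_DMSO (1.29%) and 1 for VCaP16 and not VCaP_ENZ (0.963%). The overlap of 50% of the region gave 2 for VCaP_DMSO and not VCaP16 (0.595%) and 0 for VCaP_ENZ and not VCaP16 (0.388%). Calls in 2 of 3 libraries gave 6 for VCaP16 and not VCaP_DMSO (5.495%), 3 in the opposite direction (2.09%), 2 for VCaP_ENZ and not VCaP_DMSO (2.90%), 2 in the opposite direction (2.39%), 7 for VCaP16 and not VCaP_ENZ (4.59%) and 2 in the opposite direction (1.97%). Leaving out both long lists gave 4 for VCaP16 and not VCaP_ENZ (3.50%) and 3 in the opposite direction (1.89%). Fewer libraries or calls in 2 of 3 cannot end such a pattern. With single libraries left out they ran from 2 to 4 for VCaP16 and not VCaP_DMSO, 1 to 3 in the opposite direction, 1 to 2 for VCaP_ENZ and not VCaP_DMSO, 1 to 2 in the opposite direction, 2 to 6 for VCaP16 and not VCaP_ENZ and 1 to 2 in the opposite direction; the 6 came without VCaP16 replicate 1 (2.67%) and the 4 without VCaP16 replicate 1 (3.39%) or 2 (3.34%). Except where fewer libraries or peaks set a value by construction, the cause was not tested.

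With a replicate block, VCaP16 minus VCaP_DMSO was 5.33 regions called (exact permutation p = 0.5), and limma called 0 regions. Depth is unknown and could not be corrected, so an uncalled region may lie under the limit of its library.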
